A study of Mus musculus with 8 samples.

Results

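Ly6c2, Ccr2, Plac8, Cx3cr1, Treml4, Ace, Csf1r and Cebpb are 8 of the 17921 genes counted in single cells of mouse lung grafts. They were chosen by name as genes of the classical and the patrolling branch of monocytes. Their UMIs (unique molecular identifiers, each a counted transcript molecule) were read by labelled cell type, cell by cell within monocytes, and between the study's groups. Each of the 8 libraries was 1 left lung graft of 1 male mouse, taken 1 month after transplantation with no immunosuppression, and the mouse is the replicate. In the 5 B6→B6 grafts, donor and recipient were both C57BL/6 (B6), and these served as non-rejecting controls. In the 3 HLA→B6 grafts, the donor was of a C57BL/6 strain with an HLA-A2.1 transgene (HLA) and the recipient was B6, a model of bronchiolitis obliterans syndrome (BOS). Both groups thus carried a transplanted lung, and no untransplanted lung was compared here.

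Monocytes leave the bone marrow as classical cells, which carry Ly6C and use the chemokine receptor CCR2 to enter inflamed tissue. Part of them turn into patrolling cells, which lose Ly6C and CCR2, carry the fractalkine receptor CX3CR1 and crawl along the inner wall of blood vessels, among others in the lung. That step needs the transcription factors NR4A1 and C/EBPβ (the product of Cebpb), and patrolling cells depend on the CSF-1 receptor (Csf1r) for survival. Ly6c2 encodes a small membrane-anchored Ly6C protein, Treml4 a receptor of the TREM family, and Ace the angiotensin-converting enzyme, an enzyme also known from lung endothelium. Plac8 encodes a small cysteine-rich protein of many leukocytes.

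Ly6c2 on one side and Treml4 and Ace on the other were among the genes most rarely found in the same cells, so the 250 bases before their RefSeq starts are shown, 5′ to 3′ on the strand of the gene (GRCm38.p6). The windows lie upstream of the transcripts. Ly6c2 was read at chr15:75111972-75112221 on the minus strand, Treml4 at chr17:48264045-48264294 on the plus strand and Ace at chr11:105967698-105967947 on the plus strand. Capitals mark matches to 3 motifs that were searched on both strands.
Ly6c2: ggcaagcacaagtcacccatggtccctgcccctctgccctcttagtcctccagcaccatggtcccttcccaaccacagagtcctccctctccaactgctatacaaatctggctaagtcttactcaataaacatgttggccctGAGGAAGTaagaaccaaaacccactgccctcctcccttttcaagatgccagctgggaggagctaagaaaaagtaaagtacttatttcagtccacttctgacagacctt
Treml4: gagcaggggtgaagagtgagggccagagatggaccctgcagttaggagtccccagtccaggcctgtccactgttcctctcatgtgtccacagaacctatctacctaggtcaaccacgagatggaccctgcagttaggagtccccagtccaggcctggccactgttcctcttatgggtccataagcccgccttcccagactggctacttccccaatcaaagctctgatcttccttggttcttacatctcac
Ace: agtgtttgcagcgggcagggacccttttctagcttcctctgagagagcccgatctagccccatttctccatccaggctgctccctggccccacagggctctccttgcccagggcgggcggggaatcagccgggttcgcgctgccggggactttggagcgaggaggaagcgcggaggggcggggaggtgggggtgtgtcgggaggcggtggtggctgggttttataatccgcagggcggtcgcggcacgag
The PU.1 motif GAGGAAGT was in the Ly6c2 window, from 108 to 101 bases before the start on the strand of the gene, and 2.44% of 32851 RefSeq windows of that length hold it. No match to the C/EBP motif TTNNGCAA (9.56% of windows) or the NR4A1 motif AAAGGTCA (1.34%) was in the 7 of 8 windows that were read, and the motifs overlapped nowhere in them. A match describes letters and is not a binding site.

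The 20778 cells came to between 868 and 6544 a graft, with 1669076 to 12445769 UMIs. The authors' labels put 1968 cells in monocytes, 49, 100, 183, 148 and 54 in the B6→B6 mice and 1077, 242 and 115 in the HLA→B6 mice. HLA→B6 replicate 1 therefore held more than the other 7 grafts together, and pooled counts of monocytes lean on it. Median depth of monocytes was between 1869 and 2861 UMIs. Some cell barcodes occurred in more than 1 library, most often among 4 linked libraries, B6→B6 replicates 1 to 3 with HLA→B6 replicate 2, where up to 11.9% of the cells of the smaller library shared one. Among monocytes this concerned 36 cells. Markers of other cells, apart from those of interstitial macrophages, were low in monocytes. The summed level of 9 neutrophil markers was 351 CPM (UMIs of a gene per 1000000 UMIs) over pooled monocytes against 192420 in leukocytes, with Ly6g at 0, and that of 5 NK cell markers was 6.29. Alveolar macrophage markers (10 genes) came to 64.8 CPM, with Fabp1, Siglecf and Marco at 0. The 7 T cell markers came to 71.5, the 5 B cell markers to 30.1, the 8 dendritic cell markers to 73.5, with Itgae at 0, and the 4 plasma cell markers to 365. The 5 endothelial markers came to 207, against 7167 in structural cells. Interstitial macrophage markers (9 genes, with Folr2 at 0) were not low, at 4235 against 17385 in alveolar macrophages.

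Of the 8 genes, 5 had their highest level in the cells labelled monocyte. The levels of Ccr2, Plac8, Cx3cr1, Treml4 and Csf1r had higher means in monocytes than in the other 10 labelled types. For Plac8, Cx3cr1, Treml4 and Csf1r the mice did not overlap with those of any other type, while for Ccr2 the lowest monocyte value (441 CPM) lay below the highest of myeloid cells (528). Since the labels were made from these counts, levels across types are given as a description, in CPM, taken over all UMIs of a type and mouse, with 1 value for each mouse with at least 10 cells (mean ± SD).

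Among the classical genes, Ccr2 stood at 807 ± 354 CPM in monocytes (n = 8 mice, 441 to 1341), followed by mast cells at 336 ± 81.5 (n = 3), natural killer (NK) cells at 273 ± 93.1 (n = 8) and myeloid cells at 262 ± 161 (n = 8), whose ranges overlapped each other. T cells held 92.9 ± 67.2 and B cells 0.84 ± 1.69. Plac8 was at 4624 ± 982 in monocytes (3334 to 6125), 2103 ± 149 in mast cells and 693 ± 139 in B cells, and the ranges of these 3 types did not overlap. Alveolar macrophages were at 18.6 ± 14.3, with 12.3 ± 8.33 in B6→B6 and 29.2 ± 17.5 in HLA→B6 mice. They are no clear floor for Plac8, as the cells under this label differed between the groups. Nor are structural cells (56.3 ± 28.3), as their Vcam1+ endothelial cluster was at 324 over pooled cells.

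Ly6c2 was the classical gene whose highest level lay outside monocytes. Plasma cells of the 2 mice with enough of them, HLA→B6 replicates 1 and 2, held 1435 and 1941 CPM. No B6→B6 mouse had enough plasma cells for a value. NK cells followed at 1121 ± 421 (n = 8, 644 to 2057), then monocytes at 847 ± 242 (n = 8, 528 to 1197) and T cells at 457 ± 142 (n = 8, 273 to 655). NK cells, monocytes and T cells each overlapped with their neighbour in this order, and B cells held 21.6 ± 23.9. Of all 14662 Ly6c2 UMIs, 33.9% lay in monocytes, 26.3% in T cells, 13.8% in plasma cells and 11.6% in NK cells. These pooled shares lean on the larger libraries, and the median share over the 8 mice was 27.03% in monocytes, 35.1% in T cells, 0.39% in plasma cells and 19.9% in NK cells. Within T cells, chosen for a closer look after the values were seen, those with a Cd8a and no Cd4 UMI held 272 to 1170 CPM in the 8 mice, and those with Cd4 and no Cd8a held 19.4 to 160. The ranges did not overlap. Among the 4 subclusters of B cells and plasma cells, pooled levels were 9.41, 92.9, 1457 and 0 in subclusters 0, 1, 2 and 3. Ly6c1, a close paralog on chromosome 15, shared 132 of the 692 distinct windows of 91 bases (19.1%) in the last 500 bases of Ly6c2 transcripts, so reads there cannot be assigned to either gene, and Ly6c2 values are uncertain to that extent. Their pooled levels ran apart across types: Ly6c1 stood at 4095 CPM in structural cells, where Ly6c2 stood at 16.1, and at 102 in monocytes, where Ly6c2 stood at 1009.

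Of the patrolling genes, Treml4 had the largest share of its UMIs in monocytes. It stood at 221 ± 78.5 CPM there (n = 8, 131 to 349) against 18.5 ± 21.8 in leukocytes (n = 7) and 0.44 ± 0.84 in B cells, and 85.0% of its 1014 UMIs lay in monocytes. Cx3cr1 stood at 214 ± 48.1 in monocytes (136 to 304), at 45.0 ± 25.8 in NK cells and at 1.73 ± 2.08 in B cells. Ace was highest in structural cells at 736 ± 319 (201 to 1161), which held 79.8% of its UMIs, and came second in monocytes at 346 ± 95.9 (204 to 493), and these ranges overlapped. The next type, leukocytes, was at 26.2 ± 42.8, below each mouse's monocytes, and B cells were at 12.2 ± 11.2. Among structural clusters, pooled Ace was highest at 1340 in the cluster labelled Epithelial cells (2). MHC II+ endothelial cells were at 1217 and Epithelial cells (1) at 1070. Epithelial cells (7) were at 659, Vcam1+ endothelial cells at 643 and fibroblasts and smooth muscle cells at 511. These cluster names are the authors' labels, and no markers of the clusters are given here, so the cell of origin of Ace is not read from them.

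The receptor of the list extended to macrophages, and the transcription factor to macrophages and the cells labelled leukocyte. Of the labelled types, leukocytes had the highest sum of the 9 neutrophil markers (192420 CPM over pooled cells). Csf1r stood at 655 ± 101 in monocytes (487 to 756), at 219 ± 90.4 in alveolar macrophages (47.8 to 308) and at 1.28 ± 1.82 in B cells, and 53.1% of its UMIs lay in monocytes and 41.2% in alveolar macrophages. Cebpb was at 3023 ± 1062 in leukocytes (n = 7), 2726 ± 1029 in monocytes (891 to 4171) and 1891 ± 662 in alveolar macrophages (929 to 2719), each overlapping with its neighbour. Mast cells (600 ± 198) and T cells (63.3 ± 34.5) were below them.

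**Figure D1:**
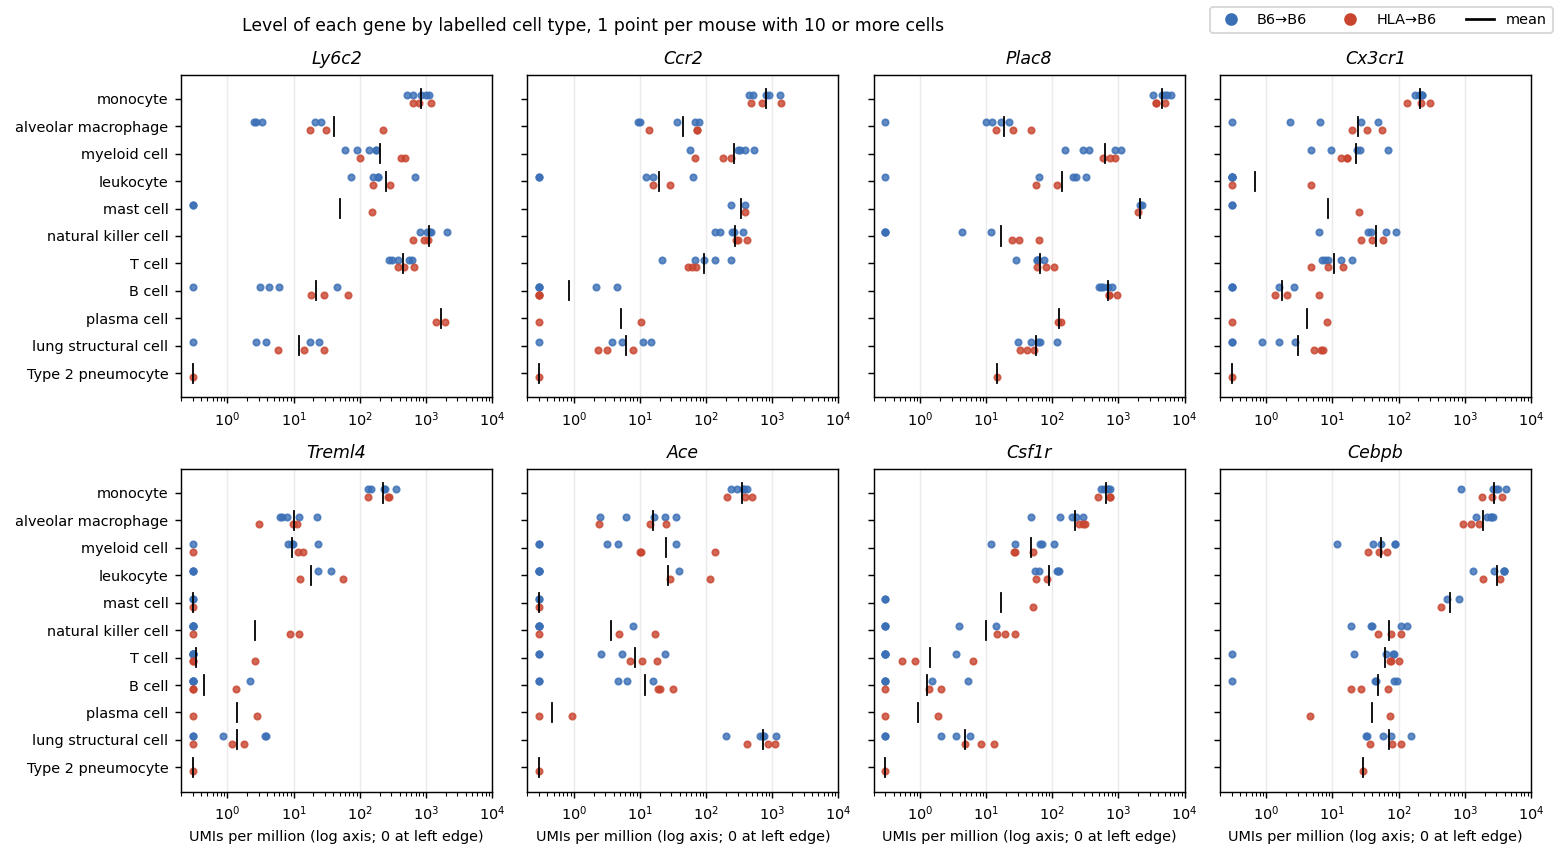
Level of each of the 8 genes (horizontal, CPM on a log axis, with 0 drawn at the left edge) in the labelled cell types (vertical); 1 point is 1 mouse with at least 10 cells of the type, blue for B6→B6 and red for HLA→B6, and the black line is the mean. Ccr2, Plac8, Cx3cr1, Treml4 and Csf1r are highest in monocytes, Ly6c2 in plasma cells (2 HLA→B6 mice only), Ace in structural cells and Cebpb in leukocytes.

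Genes with a like pattern over the 11 types were looked for among 11338 genes by Pearson's r of mean log2 (CPM + 1), as a description over 11 points that come from the same libraries. Those most alike were Gm5547, Lpcat4 and Gpr65 for Ly6c2 (r = 0.85, 0.85 and 0.83), Fam109b, Iqgap2 and Spn for Ccr2 (0.95, 0.93 and 0.90), and Slc36a3os, Olfr889 and Bri3bp for Plac8 (0.83, 0.82 and 0.80). For Cx3cr1 they were Gas7, Psma7 and Aup1 (0.92, 0.91 and 0.90), and for Treml4 Skint3, Clec4a3 and Ifi204 (0.95, 0.94 and 0.94). Ace was matched by Cep85l, Stard8 and Ip6k3 (0.98, 0.96 and 0.95), Csf1r by Sirpb1c, Tlr13 and Gdpd3 (0.98, 0.98 and 0.98), and Cebpb by Fgd4, Pygl and Cd300lb (0.98, 0.97 and 0.96). Of the 7 ligands of these receptors, Cx3cl1, the ligand of CX3CR1, was at 22.4 CPM over pooled structural cells, Ccl2, a ligand of CCR2, at 42.0 over monocytes, and Ccl8 at 252 over alveolar macrophages. Csf1, a ligand of the CSF-1 receptor, was at 564 over the 85 mast cells and 23.4 over structural cells. Il34, its other ligand, was at 22.6 over the 32 Type 2 pneumocytes, which rests on 5 UMIs. Structural cells held 41 Il34 UMIs, at 4.70 CPM.

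In single monocytes the 8 genes formed a classical set of Ly6c2, Ccr2 and Plac8 and a set of Cx3cr1, Treml4, Ace, Csf1r and Cebpb. Genes of a set were found in the same cells more often than their shares gave, and genes of different sets less often. Each cell with at least 1000 UMIs was brought to 1000 UMIs (expected value of random draws), which left 1833 monocytes, and the log2 odds ratio of finding 2 genes in the same cell was computed for each mouse. An exact permutation of signs over the 8 mice, two-sided, then tested the mean, with Benjamini-Hochberg adjustment over 28 pairs. Of these, 27 passed, 12 toward the same cells and 15 toward different cells. All 3 pairs within the classical set and 9 of 10 pairs of the other set were found together, and all 15 pairs across the sets apart. At 500 UMIs per cell, Ccr2 with Cx3cr1 (-0.27, adjusted exact p = 0.39) and Ccr2 with Csf1r (-0.39, adjusted exact p = 0.13) did not pass. The exception was Cx3cr1 and Treml4 (mean 0.45 ± 0.58, above 0 in 6 of 8 mice, exact p = 0.078), which passed at 500 UMIs per cell (0.58, adjusted p = 0.020) and without B6→B6 replicate 5 (0.56, adjusted p = 0.047).

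At that depth 28.4% of monocytes had a Ly6c2 UMI (15.7% to 34.7% over the mice), 36.8% had Ccr2, 79.4% Plac8, 17.3% Cx3cr1, 18.9% Treml4, 25.6% Ace, 44.9% Csf1r and 82.4% Cebpb. In B cells, read as the type that lacks them, the shares were 1.26% for Ly6c2, 0.055% for Ccr2, 0.17% for Cx3cr1, 0.074% for Treml4, 1.34% for Ace and 0.15% for Csf1r, with median depths of 1598 UMIs in B cells and 2156 in monocytes before thinning. For Ly6c2, B cells were not a floor, as B cell subcluster 1 had it in 9.52% of its 210 cells before thinning. Plac8 was in 1.12% of alveolar macrophages, a label whose cells differed between the groups, and Cebpb in 6.82% of T cells. Without thinning, 36.9% of monocytes had Ly6c2, 44.1% Ccr2, 82.3% Plac8, 30.8% Cx3cr1, 29.3% Treml4, 38.9% Ace, 70.5% Csf1r and 94.1% Cebpb.

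Ly6c2 and Ccr2 were the pair most often found together. Their log2 odds ratio was 2.80, 1.71, 2.91, 3.03 and 2.08 in the B6→B6 mice and 3.97, 3.89 and 4.21 in the HLA→B6 mice (mean 3.08 ± 0.90, exact p = 0.0078, the smallest that 8 mice allow, adjusted p = 0.011). As counted, 676 of the 726 monocytes with Ly6c2 also had Ccr2 (93.1%). Ly6c2 with Plac8 (2.49 ± 0.92) and Ccr2 with Plac8 (2.21 ± 1.03) followed. In the other set, Treml4 with Ace gave 1.42, 1.14, 1.47, 1.14 and 0.26 in B6→B6 and 1.57, 0.45 and 0.91 in HLA→B6 mice (mean 1.05 ± 0.48), above 0 in each of the 8. The pairs found apart most strongly joined Ly6c2 or Ccr2 with Treml4 or Ace, between Ccr2 with Ace (-2.50 ± 0.47) and Ly6c2 with Treml4 (-2.37 ± 0.69). For Ly6c2 with Treml4, the B6→B6 mice were at -2.31, -1.87, -2.46, -2.15 and -1.32 and the HLA→B6 mice at -3.32, -3.37 and -2.19. Only 0.95% of monocytes had both, where 4.91% would at unlinked shares. Plac8 against the other set ranged from -0.34 ± 0.39 with Cebpb to -1.23 ± 0.42 with Treml4. Without equal depth the count fell from 27 to 14 pairs, and the mean of 6 pairs changed sign to above 0, among them Plac8 with Cebpb (1.67 in place of -0.34), which is 1 of the 14 and passed in the opposite direction (adjusted exact p = 0.017).

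**Figure D2:**
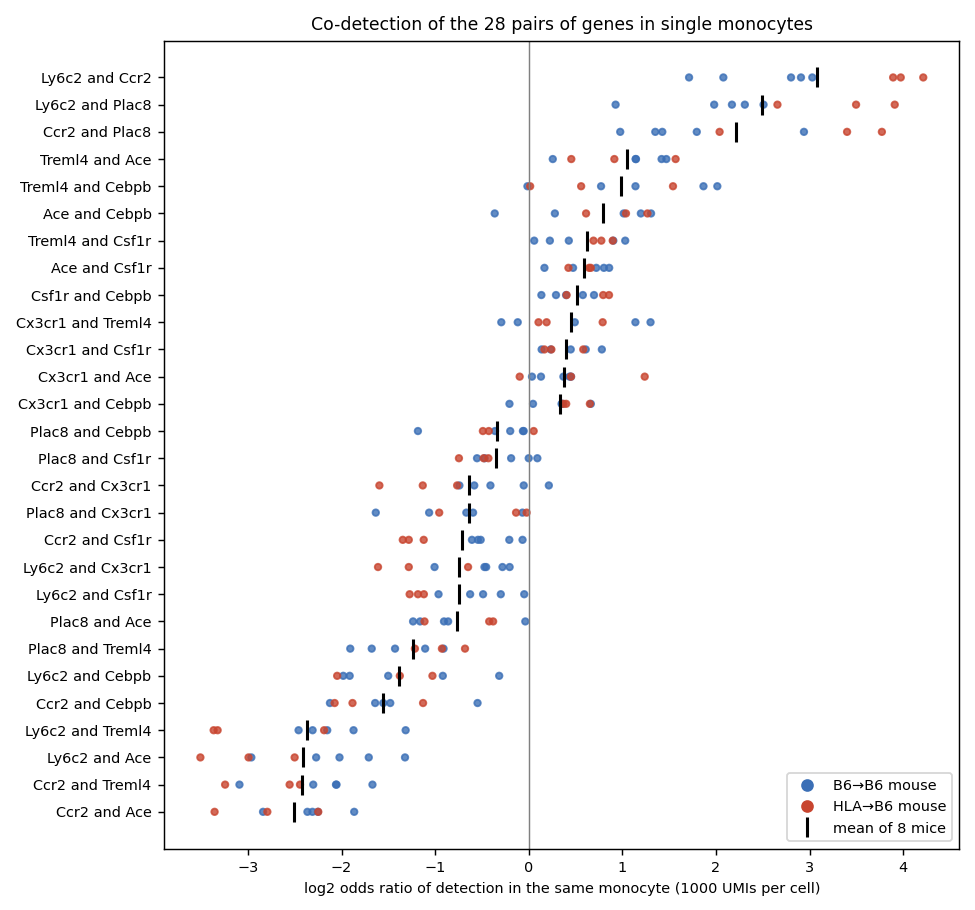
Log2 odds ratio (horizontal, no unit) of finding 2 genes in the same monocyte at 1000 UMIs per cell, for the 28 pairs (vertical); 1 point is 1 mouse, blue for B6→B6 and red for HLA→B6, and the black mark is the mean of 8 mice. Pairs within Ly6c2, Ccr2 and Plac8 lie to the right, up to a mean of 3.08, and pairs of Ly6c2 or Ccr2 with Treml4 or Ace lie to the left, down to -2.50.

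The odds ratios were then set against each other between the groups, a comparison added after the values were seen. In 5 of 28 pairs the 3 HLA→B6 mice lay farther from 0 than the 5 B6→B6 mice, without overlap. These were Ly6c2 with Ccr2 (4.03 ± 0.17 against 2.51 ± 0.58), Ly6c2 with Plac8 (3.35 ± 0.64 against 1.98 ± 0.62), Ly6c2 with Csf1r (-1.19 ± 0.08 against -0.49 ± 0.34), Ccr2 with Csf1r (-1.25 ± 0.12 against -0.39 ± 0.24) and Ccr2 with Cx3cr1 (-1.16 ± 0.42 against -0.31 ± 0.39). For each the two-sided exact permutation p was 0.036, the smallest that 56 splits of 3 and 5 mice allow. None passed after adjustment over the 28 pairs (adjusted p = 0.20).

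Monocytes were next sorted by 4 of the genes into cells with Ly6c2 or Ccr2 alone, cells with Treml4 or Ace alone, cells with both kinds and cells with neither. The other 4 genes and the lists below took no part in the sorting. As counted there were 684, 774, 233 and 277 cells, with median depths of 3363, 1650, 3496 and 1344 UMIs, so that the first class was deeper than the second. Cells with both kinds had been marked as doublets in 7.30%, against 0.88% and 3.49% in the first and second class. Of the 55 monocytes marked as doublets, 50 lay in HLA→B6 replicate 1. Of 700 cells with 5 or more UMIs of Ly6c2 and Ccr2, 19.0% had a Treml4 or Ace UMI. Only 26 cells had at least 3 UMIs of each kind. The summed level of 5 endothelial markers was 34.9 CPM in cells with Ly6c2 or Ccr2 alone, 350 with Treml4 or Ace alone, 427 with both and 259 with neither. Ace is itself high in endothelial cells, and the part of endothelial RNA in these classes was not tested.

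Between these classes 4 of 4 remaining members changed. The sums of each mouse and class entered a quasi-likelihood fit in edgeR with a term for each mouse. The 7 mice with at least 10 cells of each class entered it, and B6→B6 replicate 1 was left out. Of 1811 genes tested, 799 passed an adjusted p of 0.05 (44.1%), 22.8% of genes higher and 21.3% lower in cells with Treml4 or Ace, and 520 of the 799 moved the same way in every mouse. Plac8 in cells with Ly6c2 or Ccr2 stood at 6192, 5469, 6584 and 5138 normalized CPM in the 4 B6→B6 mice compared, and 6352, 5394 and 6693 in the HLA→B6 mice. In cells with Treml4 or Ace it stood at 3389, 3538, 3701 and 2709, and at 2131, 1902 and 1426. The 2 classes did not overlap, and the log2 fold change was -1.18 (SE 0.15, adjusted p = 2.2e-06, lower in 7 of 7 mice). Cebpb rose from 2248 ± 643 to 4074 ± 1232 (0.90 on the log2 scale, SE 0.09, adjusted p = 1.2e-07), Csf1r from 505 ± 92.5 to 826 ± 104 (0.80, SE 0.11, adjusted p = 8.8e-06) and Cx3cr1 from 145 ± 50.8 to 292 ± 63.6 (1.22, SE 0.19, adjusted p = 3.3e-05), each in 7 of 7 mice.

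**Figure D3:**
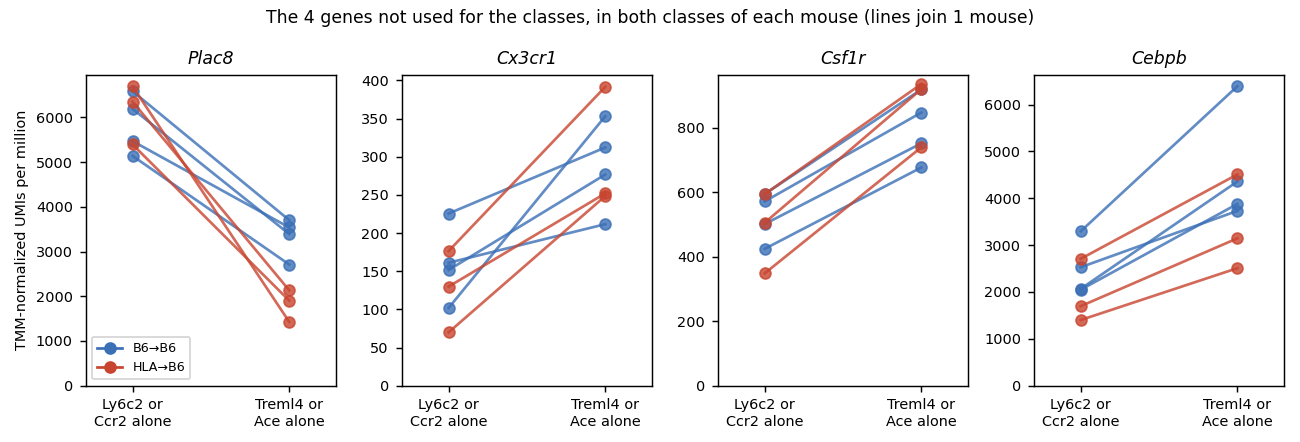
Normalized CPM (vertical) of the 4 genes not used to sort the cells, in monocytes with Ly6c2 or Ccr2 alone and in monocytes with Treml4 or Ace alone; each line joins the classes of 1 mouse, blue for B6→B6 and red for HLA→B6. Plac8 falls and Cx3cr1, Csf1r and Cebpb rise in each of the 7 mice.

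Other genes of the branches moved with them, taken from lists that were chosen with earlier results of these data known. Of 20 patrolling genes, 18 were tested and 18 were higher in cells with Treml4 or Ace (median log2 fold change 3.29 against -0.01 over all genes tested). They included Spn (CD43, a sialoglycoprotein; 3.89), Itgal (the integrin LFA-1 chain; 2.91), Nr4a1 (1.87) and Fcgr4 (an Fc receptor; 3.78). Of 18 classical genes, 14 were tested, 12 were lower and 1, Clec4e, was higher (0.78, SE 0.19, adjusted p = 0.0021), while Il1b did not pass (0.56, adjusted p = 0.080). The median was -1.51, with Chil3, a chitinase-like protein, at -3.69, Lyz2, lysozyme, at -1.53 and Cd14 at -0.95. Of 18 genes of monocyte development and growth factor receptors, 14 were tested, with 5 higher and 4 lower (median -0.05). Higher were Pou2f2 (2.47), Nr4a1, Klf4 (1.28), Il10ra (0.53) and Spi1, which encodes PU.1 (0.49). Among the lower were Cebpa (-1.79), Cebpd (-1.09) and Irf8 (-0.66), so that the C/EBP genes went in different directions, Cebpb up and Cebpa and Cebpd down. Zeb2 (0.05) and Irf5 (-0.16) were among the 5 that did not pass. Bcl2a1a, on the patrolling list, has near-identical copies and its value is uncertain.

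The largest rises among genes that moved the same way in every mouse were those of Cd300e (6.95, SE 0.29), an activating receptor of myeloid cells, Eno3, an enolase (6.06), S1pr5, a sphingosine-1-phosphate receptor (5.74), Fabp4, a fatty acid binding protein (5.67), and Lilra5 (5.36). Among the largest falls were those of F13a1, a coagulation factor XIII chain (-7.00, SE 0.26), Fn1, fibronectin (-4.79), Cd177 (-4.60) and Ms4a8a (-4.59). F13a1 was at 618 ± 233 normalized CPM in cells with Ly6c2 or Ccr2 and at 4.02 ± 4.13 in cells with Treml4 or Ace, with no overlap. Several of these genes reached 0 UMIs in a mouse, so their fitted fold changes depend on the prior count.

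The fall of Plac8 between the classes was larger in each HLA→B6 mouse than in each B6→B6 mouse. In 4 B6→B6 mice the log2 ratio per mouse was between -0.92 and -0.63 (-0.81 ± 0.13). In 3 HLA→B6 mice, of which replicate 3 had 12 cells with Ly6c2 or Ccr2 alone, it was between -2.23 and -1.504 (-1.77 ± 0.40). A test of the difference, added after the values were seen, gave -0.91 (SE 0.19, 95% interval -1.30 to -0.52, unadjusted p = 0.00013), and it did not pass over all 1811 genes (edgeR, Benjamini-Hochberg adjusted p = 0.12). It did pass without HLA→B6 replicate 1 (adjusted p = 0.030) and with no filter on low counts (adjusted p = 0.00504). For Cx3cr1 (0.62, -0.14 to 1.38), Csf1r (0.33, -0.11 to 0.77) and Cebpb (-0.02, -0.38 to 0.33) the interval held 0. Of all genes, 0 passed (0%), with 103 at an unadjusted p under 0.05 and 0 by DESeq2.

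The share of each class was compared between the groups at 1000 UMIs per cell. Cells with Ly6c2 or Ccr2 alone made up 21.8, 30.2, 49.9, 23.8 and 34.1% of monocytes in the B6→B6 mice and 46.3, 23.1 and 17.7% in the HLA→B6 mice (32.0 ± 11.2% against 29.0 ± 15.2%, exact permutation p = 0.71). Cells with Treml4 or Ace alone made up 51.1, 37.2, 26.3, 40.4 and 34.9% against 25.9, 46.5 and 51.0% (37.97 ± 9.01% against 41.2 ± 13.4%, exact p = 0.75). The groups overlapped in both, and leaving out single mice moved the difference of the first from -11.6 to 2.74 percentage points and that of the second from -1.73 to 10.8. Cells with both kinds made up 4.52, 9.17, 5.67, 5.24 and 7.53% in B6→B6 mice and 3.56, 3.22 and 3.97% in HLA→B6 mice. The groups did not overlap (6.43 ± 1.89% against 3.58 ± 0.38%), and the exact p of 0.036 was the smallest that 56 splits allow, with an adjusted p of 0.14 over the 4 classes. The order was the same at 500 UMIs (2.21 against 1.31%), at 2000 UMIs (17.0 against 10.7%) and with doublets left out (6.37 against 3.46%). Scrublet had marked 0, 0, 3, 1 and 0 monocytes in the B6→B6 mice and 50, 0 and 1 in the HLA→B6 mice. Leaving doublets out could therefore hardly change the B6→B6 shares. The share of B cells with a Ly6c2 UMI was 0 to 1.27% in the B6→B6 mice and 2.06 to 4.63% in the HLA→B6 mice. B cell subcluster 1 had Ly6c2 in 9.52% of its cells, so these shares are not a background level. Cells with neither came to 23.6 ± 4.42% and 26.2 ± 1.74% (exact p = 0.36).

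**Figure D4:**
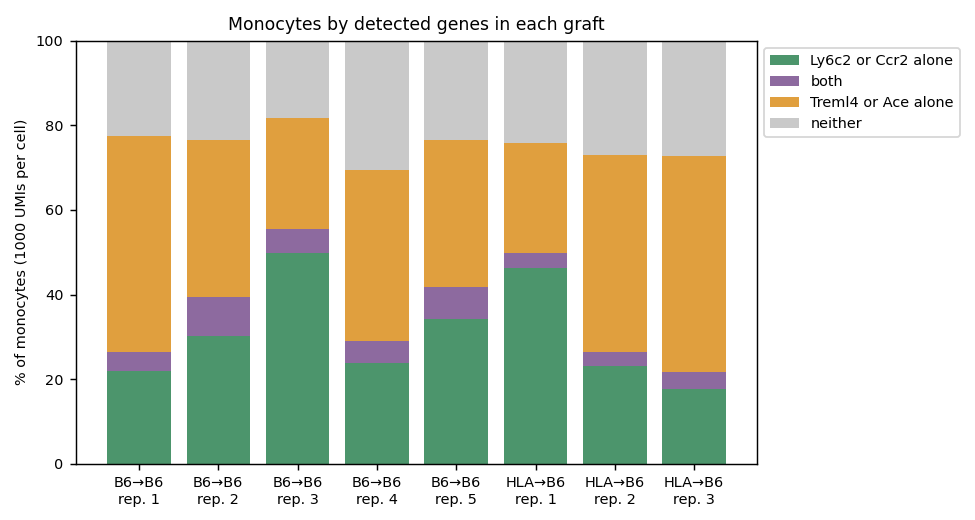
Share of monocytes (vertical, percent, expected at 1000 UMIs per cell) with Ly6c2 or Ccr2 alone, both kinds, Treml4 or Ace alone, or neither, in each of the 8 grafts (horizontal). The band of cells with both kinds is between 4.52 and 9.17% in the B6→B6 grafts and between 3.22 and 3.97% in the HLA→B6 grafts, while the larger bands vary within each group.

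Within monocytes none of the 8 genes differed between HLA→B6 and B6→B6 grafts past the threshold (edgeR quasi-likelihood, adjusted p by Benjamini-Hochberg = 0.999 for each). Of all 4352 genes tested, 1 passed (0.023%), with 219 at an unadjusted p under 0.05 and 15 by DESeq2. Of the 8 genes, 0 were at an unadjusted p under 0.05 and 0 passed by DESeq2. Ly6c2 stood at 616, 519, 1007, 925 and 1149 normalized CPM in the B6→B6 mice and 1179, 625 and 780 in the HLA→B6 mice. Its log2 fold change was 0.04 with a 95% interval from -0.50 to 0.59. Ccr2 stood at 429, 869, 1296, 546 and 823 against 1320, 680 and 479 (0.07, -0.64 to 0.77). HLA→B6 replicate 1 was highest of its group in both. Plac8 stood at 3241, 6018, 5417, 5539 and 4688 against 4951, 3576 and 3659 (-0.29, -0.69 to 0.12).

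In the patrolling genes HLA→B6 replicate 1 was lowest of its group. Treml4 stood at 339, 230, 131, 258 and 151 against 129, 266 and 261 (-0.003, -0.64 to 0.64), Cx3cr1 at 223, 212, 205, 247 and 181 against 134, 293 and 214 (-0.02, -0.52 to 0.48), and Ace at 402, 288, 233, 402 and 381 against 201, 375 and 489 (0.06, -0.51 to 0.63). Csf1r was at 657 ± 69.1 in B6→B6 and 648 ± 146 in HLA→B6 mice (-0.02, -0.40 to 0.37), and Cebpb at 2828 ± 1257 and 2601 ± 912 (-0.12, -0.85 to 0.62). B6→B6 replicate 1 held the lowest Cebpb value of the 8 mice, 866. Each range overlapped between the groups, and the intervals reached from -0.85 to 0.77 at their widest. None of the 17 classical, 19 patrolling and 16 development genes tested passed either (medians 0.03, 0.20 and -0.18 against -0.01 over all genes). The smallest adjusted p among them was that of Bcl2a1a (log2 fold change 1.49, SE 0.26, adjusted p = 0.055). Fcgr4 was at 0.75 (adjusted p = 0.42) and Nr4a1 at -0.69 (adjusted p = 0.72). Of 5 endothelial markers, 4 were tested and 0 passed, with a median of 1.40 and Pecam1, which monocytes also make, at 1.499 (adjusted p = 0.11).

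**Figure D5:**
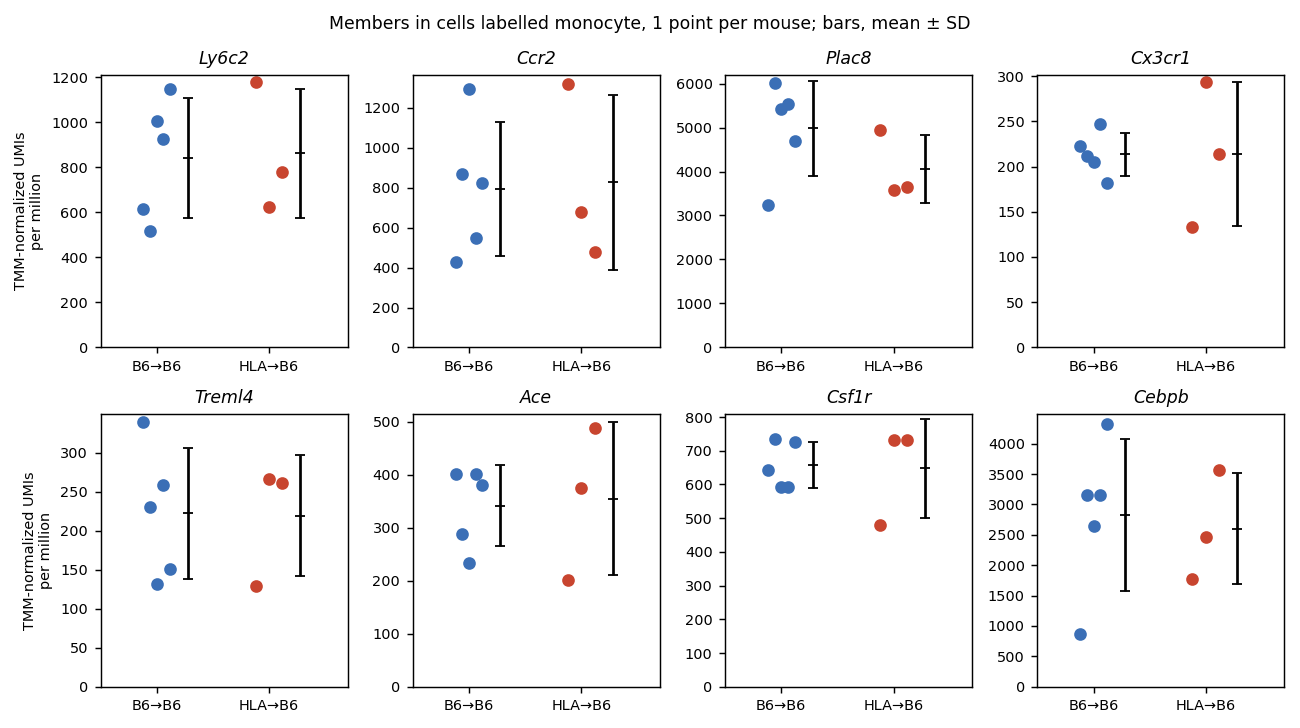
Normalized CPM (vertical) of the 8 genes in cells labelled monocyte; 1 point is 1 mouse, blue for the 5 B6→B6 and red for the 3 HLA→B6 mice, and bars give the mean ± SD. The groups overlap in each gene, and the highest red points of Ly6c2 and Ccr2 belong to the mouse that is lowest of its group in Treml4 and Ace (HLA→B6 replicate 1).

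Over all cells of a graft, where more cells of a type and more RNA per cell cannot be told apart, monocytes were 5.17, 7.41, 7.52, 3.61 and 6.22% of cells in B6→B6 and 16.5, 7.35 and 9.23% in HLA→B6 mice. None of the 8 genes passed, nor did any of 11584 genes (0%), with 815 genes and 2 of the 8 at an unadjusted p under 0.05, and 119 genes and 0 of the 8 by DESeq2. The 2 were Csf1r and Ly6c2. Csf1r stood at 76.5, 128, 103, 62.1 and 75.4 normalized CPM in B6→B6 mice and 145, 167 and 143 in HLA→B6 mice, without overlap (log2 fold change 0.77, 95% interval 0.27 to 1.27, edgeR adjusted p = 0.38). With monocytes left out it was 1.04 (adjusted p = 0.60). How many of the 11584 genes did not overlap was not counted, so that of Csf1r is not read as a group difference. Ly6c2 stood at 181, 233, 287, 148 and 339 against 505, 365 and 305, which overlapped (0.72, 0.10 to 1.35, adjusted p = 0.59). Ccr2, Plac8, Cx3cr1, Treml4 and Ace had log2 fold changes between 0.27 and 0.62, and Cebpb of -0.18. The medians of the classical, patrolling and development lists were 0.52, 0.24 and 0.24 (medians over 18, 20 and 18 genes tested), with 0 genes past the threshold in each, against -0.01 over all genes.

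Among the other labelled types that could be compared, 1 of the 8 genes passed, Ly6c2 in cells labelled alveolar macrophage. There, 1 of the 7 members tested passed, and 712 of 5798 genes did (12.3%), 6.36% higher and 5.92% lower in HLA→B6. With 1 call among 7, the count is near that share and is not read as a result about the members. Ly6c2 stood at 3.09, 20.6, 24.2, 2.58 and 2.31 normalized CPM in the B6→B6 mice and 18.8, 272 and 33.0 in the HLA→B6 mice, with a log2 fold change of 3.67 (SE 0.94, edgeR adjusted p = 0.030). The call rests on HLA→B6 replicate 2, the only mouse at this height, and the groups overlapped. Without that mouse the value was 1.32 (adjusted p = 0.45). It also lost the call without B6→B6 replicate 1 (3.52, adjusted p = 0.068), 4 (3.07, 0.089) or 5 (3.48, 0.061) and with a replicate block (2.44, 0.056), and without B6→B6 replicate 3 the gene was not tested. In HLA→B6 replicate 2, 138 of 514 such cells had a Ly6c2 UMI (26.8%), 75 had 3 or more, and the highest cell had 58. In the other 7 mice the share was between 0.63 and 3.85%. In B cells of HLA→B6 replicate 2, a type with Ly6c2 in its subcluster 1, the share was 4.63%. Median depth of the cells labelled alveolar macrophage was 7144 UMIs in HLA→B6 replicate 2 and 803 to 3837 in the others.

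The cells under this label differed between the groups. The summed level of 10 alveolar macrophage markers was 3213 to 4609 CPM in the B6→B6 mice and 483 to 1290 in the HLA→B6 mice, lowest in HLA→B6 replicate 2, and 7 of the 10 genes were lower past the threshold. That of 9 interstitial macrophage markers was 121 to 11073 and 24116 to 32741. The count of 712 genes moved to 388, 273 and 180 without B6→B6 replicate 1, B6→B6 replicate 4 or HLA→B6 replicate 2. Plac8 in these cells was at 1.49 (SE 0.48, adjusted p = 0.064) and passed by DESeq2 (adjusted p = 0.045), with shared barcodes left out (0.049) and without HLA→B6 replicate 3 (0.041). Csf1r was at 43.8 to 270 against 276 to 341 normalized CPM, without overlap (0.89, adjusted p = 0.16), Cebpb at 2133 ± 455 against 1391 ± 346 (-0.62, adjusted p = 0.099), Cx3cr1 at 1.60 (adjusted p = 0.20, and 0.049 without B6→B6 replicate 3), Ccr2 at 0.89 (0.39) and Ace at -0.82 (0.51). Treml4 did not pass the filter on low counts. How many of all genes tested in these cells did not overlap was not counted, so that of Csf1r is not read as a group difference.

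In the remaining types no member that could be tested passed by edgeR or DESeq2: low counts left 5 of the 8 in myeloid cells, 3 in leukocytes, 4 in NK cells, 5 in T cells, 4 in B cells and 4 in structural cells. Of those not tested, values did not overlap for 3, at 0 to 24 UMIs a mouse. How many of all genes at such counts did not overlap was not counted, so these 3 are not read as group differences. Plac8 in NK cells was at 0 to 12.4 normalized CPM in B6→B6 and 24.4 to 65.2 in HLA→B6 mice, Csf1r in NK cells at 0 to 13.6 and 14.5 to 27.9, and Csf1r in structural cells at 0 to 5.08 and 6.42 to 9.93. Of all genes tested, 0 of 4395 passed in myeloid cells (0%), 0 of 913 in leukocytes (0%), 0 of 2987 in NK cells (0%), 5 of 7164 in T cells (0.0698%), 7 of 6001 in B cells (0.117%) and 49 of 8109 in structural cells (0.604%). At an unadjusted p under 0.05 there were 215, 47 and 97 genes in myeloid cells, leukocytes and NK cells, and DESeq2 called 25, 2 and 0. Of the members, Ly6c2 in myeloid cells was at 130 ± 53.8 against 333 ± 209 normalized CPM (log2 fold change 1.54, adjusted p = 0.42), and in B cells at 12.3 ± 19.95 against 38.03 ± 25.03 (1.69, adjusted p = 1.00). Ace in B cells was at 5.54 ± 6.90 against 23.5 ± 6.68, without overlap (2.06, edgeR adjusted p = 0.72). It rests on 57 UMIs over all B cells and is not read as a group difference either. Plasma cells, mast cells and Type 2 pneumocytes had too few mice in a group for a test.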

How the data were processed

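UMI counts of 17921 genes in 20778 single cells of 8 left lung grafts (10x 3′ libraries, 10000 cells loaded a graft) were used as deposited by the authors, who mapped reads to mm10 (GRCm38) with Cell Ranger, treated ambient RNA with SoupX, and clustered and labelled cells with Seurat and clustifyr. The sources used here do not say whether the deposited counts precede the SoupX step. Groups came from the labels, HLA→B6 mice are numbered as in the sample column of the deposited cell table (the cell names there carry other numbers, so these numbers are uncertain), and 0 columns of values were left unused. Depth was 1669076 to 12445769 UMIs a graft.

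Counts were summed per mouse and labelled type (at least 10 cells) and compared with edgeR 4.0.16 (R 4.3.3): TMM factors, filterByExpr with a minimum count of 10, quasi-likelihood F tests, and Benjamini-Hochberg adjustment over all genes tested, with a threshold of 0.05. The SE is the absolute log2 fold change divided by the square root of F, and 95% intervals use the total degrees of freedom. Shares of monocyte classes and pairs of genes were counted at 1000 UMIs per cell, with 0.5 added to each cell of an odds ratio. Pairs were tested by exact permutation of signs over the 8 mice, and class shares and odds ratios between groups by exact permutation over 56 splits, all two-sided. The classes compared with edgeR were sorted on the counts without thinning. P-values measure the spread between these mice, and depth limits cover counting error only. Scrublet (scanpy 1.11.5, expected rate 0.06) marked 256 doublets (1.23%), which were kept except in an alternative. Other work used Python 3.11.15, numpy 2.4.6, pandas 2.3.3, scipy 1.17.1, statsmodels 0.14.6 and matplotlib 3.10.9, and the scripts were tested on simulated data. Promoter sequences and starts are from RefSeq (GRCm38.p6), where 7 of the 8 genes matched.

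The 8 genes and all gene lists were chosen with earlier results of these data known. Beside the 8 genes, the text names the 3 genes most like each across types (at 10 CPM or more in a type), list genes past the threshold plus at most 4 others a list, and the 5 largest rises and falls between the monocyte classes that moved the same way in every mouse, apart from items not reported here. Alternatives were DESeq2 1.42.0, RLE size factors, no filter, the replicate number or the linked libraries as a block, cells with at least 500 UMIs, doublets or shared barcodes left out, 49 monocytes from each mouse, all cells but monocytes, at least 20 cells, depths of 500 and 2000 UMIs or no thinning, classes by Treml4 and Ly6c2 only, and each mouse left out. Chosen only after seeing the data were the comparisons of odds ratios and of the class contrast between groups, the split of T cells by Cd8a and Cd4, and, for alveolar macrophages, the block and each mouse left out.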

Additional observations from a re-analysis of the deposited data

Results flagged for a closer look

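In 3 of 64 sets of 4 to 10 values, 1 mouse stood far from the rest of its set by Dixon's criterion, which chance alone meets in about 1 set in 20. Cebpb over all cells of a graft was at 313 normalized CPM in B6→B6 replicate 1, against 778 to 946 in the other B6→B6 mice. The log2 odds ratio of finding Plac8 and Cebpb in the same monocyte was -1.18 in B6→B6 replicate 4. That of Cx3cr1 and Ace was 1.24 in HLA→B6 replicate 1, the mouse with the most monocytes (1077).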

How the results depend on the processing

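Of 1217 values under alternatives, 1102 kept their direction and side of the threshold or moved within the limits set, 15 lost and 8 gained a call, 35 moved and 57 changed sign. The 4 members stayed different between the monocyte classes without each mouse in turn. None of the 8 genes passed in monocytes or whole grafts under any alternative run.

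In monocytes the count of genes past the threshold was 1, and 15 with DESeq2, 98 with no filter, 5 with linked libraries as a block, 2 with at least 500 UMIs, 3 without doublets, 2 without shared barcodes, 3 with equal numbers of monocytes and 1 to 6 without single mice. In whole grafts it was 119 with DESeq2 and 92 with linked libraries as a block. DESeq2 called 25 genes in myeloid cells, 2 in leukocytes, 37 in T cells, 2 in B cells and 94 in structural cells, and 2 members in types other than monocytes, as did leaving out shared barcodes (2). The count in alveolar macrophages was 180 to 829 without single mice, that between classes 1443 with no filter. For the difference of the class contrast, no filter gave 1 member and 16 genes, and single mice left out 0 to 1 and 0 to 4.

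With the replicate number as a block, monocytes gave 10 genes, whole grafts 7 and alveolar macrophages 283, with Ccr2 at -0.11 and Cebpb at 0.36 in monocytes and -0.15 and 0.17 in whole grafts. The numbers of the HLA→B6 mice are uncertain, and no pairing was taken from them: as numbered here, same-numbered mice correlated at -0.12, 0.15 and -0.18, and only number 2 correlated best with its own number.

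Small log2 fold changes in monocytes changed sign. No filter gave Cx3cr1 0.0031, Treml4 0.019 and Csf1r 0.0049, linked libraries as a block gave Ly6c2 -0.12, Cx3cr1 0.028, Treml4 0.043 and Csf1r 0.0070, at least 500 UMIs gave Treml4 5.8e-05 and equal numbers gave Ace -0.010. Without single mice the ranges were -0.26 to 0.23 for Ly6c2, -0.46 to 0.34 for Ccr2, -0.33 to 0.27 for Cx3cr1, -0.19 to 0.31 for Treml4, -0.23 to 0.37 for Ace, -0.11 to 0.17 for Csf1r and -0.41 to 0.10 for Cebpb. In whole grafts they were -0.42 to 0.65 for Ccr2 and -0.17 to 0.68 for Plac8, and without monocytes Ccr2 was -0.41 and Treml4 -0.032. Ace in alveolar macrophages ranged from -1.24 to 0.027, Ly6c2 in leukocytes was 0.37 with at least 20 cells, and Cebpb in the difference of the class contrast was 0.064 with no filter and -0.14 to 0.042 without single mice. The difference in the share of cells with Ly6c2 or Ccr2 alone was 2.504 percentage points at 2000 UMIs, 0.74 by Treml4 and Ly6c2 only and -11.6 to 2.74 without single mice. That of Treml4 or Ace alone was -0.55 and -1.73 to 10.8, and that of neither -0.79 at 2000 UMIs. Without thinning 14 pairs passed, with Ly6c2 and Cx3cr1 at 0.17, Ly6c2 and Csf1r 0.14, Ccr2 and Cx3cr1 0.20, Ccr2 and Csf1r 0.60, Plac8 and Csf1r 0.57, and Plac8 and Cebpb 1.67. The causes were not tested.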
